A study of Sus scrofa with 12 samples.

Results

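The DNA replication machinery was followed here as 59 genes, matched to the array by gene symbol. They were chosen by their role in copying DNA, with earlier results of these data known. Of these, 34 were found under a single symbol in the probe annotation, out of 12307 named genes in all. They cover origin licensing (6 of 9 genes), the helicase and its activation (7 of 14), the polymerases and primase (6 of 11), the clamp, its loader and the other fork proteins (9 of 15), the copying of chromatin and DNA methylation (5 of 5) and the supply of deoxynucleotides (1 of 5). The other 25 genes were not analysed here. They are ORC2, ORC3, ORC6, MCM3, MCM5, MCM6, MCM7, MCM10, CDC7, DBF4, POLA1, PRIM1, PRIM2, POLE, POLE4, PCNA, RFC2, RFC4, RPA3, TIMELESS, CLSPN, RRM2, TYMS, TK1 and DUT.

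DNA is copied once per cell cycle. The origin recognition complex, with CDC6 and CDT1, loads the MCM ring onto DNA, and CDC45 and the GINS complex turn that ring into an active helicase. Polymerase alpha with its primase starts each strand, polymerases delta and epsilon extend it on the PCNA clamp, and flap removal and ligation join the fragments of the lagging strand. Many of these genes are transcribed mainly in cells that enter S phase, under E2F factors, so in a whole organ their RNA is a common readout of dividing cells. The liver of a newborn animal still holds dividing hepatocytes and, for a time, blood cell precursors.

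The livers came from 12 suckling piglets, mixed-sex, scored and sampled on the third day of life. They were 6 piglets of the SINS high group, with high-grade signs of swine inflammation and necrosis syndrome (SINS), and 6 of the SINS low group, with no or low-grade signs. They were picked for the highest and the lowest SINS scores among the scored offspring of Baden-Württemburg Genetics hybrid sows and Pietrain semen. Which piglets shared a sow is not given in the sources used here, so the part of litter in any difference was not tested. Each liver was measured on 1 array, which gives 1 log2 value per transcript after background correction, normalization and probe summary by the authors. A difference of 1 on this scale is a doubling of signal, and levels are compared only within a gene, since probes differ in brightness. In bulk liver RNA, fewer cells of a type and less RNA per cell cannot be told apart.

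The array medians lay between 4.36 and 4.42 and the correlations between arrays between 0.964 and 0.988. The labelled tissue was checked with hepatocyte markers, of which 10 of 15 were measured. Their mean log2 level lay between 11.24 and 11.49 in the SINS high livers and between 10.99 and 11.50 in the SINS low livers, on arrays whose values span 0.61 to 12.84. Since probes differ in brightness, a level set against this span is only a coarse check. No transcript of the 25388 had an adjusted p below 0.05 from limma (smallest value 0.254), against 2884 with an unadjusted p below 0.05, or 2631 with the methods' t-test.

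Many replication genes were lower in the livers of SINS high piglets, among them genes of the MCM helicase, the polymerases, the fork protein TIPIN and the chromatin proteins HELLS and CHAF1B. A gene is called here when it passes the filter of the study, which asks for more than a 1.3-fold difference together with p under 0.05 before adjustment, the p here being that of limma. Of the 34 genes, 16 were called lower, 0 were called higher and 18 were not called. Over all named genes 3.80% were called lower and 2.30% higher. The set was chosen with earlier results of these data known, and its share was not tested against these. The log2(FC), SINS high minus SINS low, was negative for 32 of the 34 genes, with a median of −0.49 against 0.00 over all named genes, and it ranged from −1.12 for PCLAF to 0.11 for ORC4. None of the 34 passed after adjustment over all transcripts (adjusted p from limma 0.287 to 0.945), against 20 with an unadjusted p below 0.05 from limma and 12 from the methods' t-test. The exact permutation test over all 924 assignments of the piglets gave a p below 0.05 for 14 genes, not all of them called. Of the 16 called genes, 6 had an exact permutation p above 0.05, namely ORC1, CDC6, POLE2, PCLAF, FEN1 and DNMT1. The share of all named genes with such a p was not counted.

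The groups overlapped for every replication gene, that is, 0 of the 34 separated them, where 0.244% of all named genes lay lower without overlap. The count of calls depended on single livers. It was 8 when SINS high replicate 3, SINS high replicate 5 or SINS low replicate 6 was left out, 9 without SINS low replicate 2 or 3, and 23 without SINS high replicate 6. The methods' t-test, run on the same log2 values, gave 9. The shares of all named genes called were not counted for these other fits. The calls of MCM2, MCM4, POLA2, POLD1, POLD3, TIPIN, HELLS and CHAF1B were kept in all 12 fits that left out 1 liver.

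**Figure D1:**
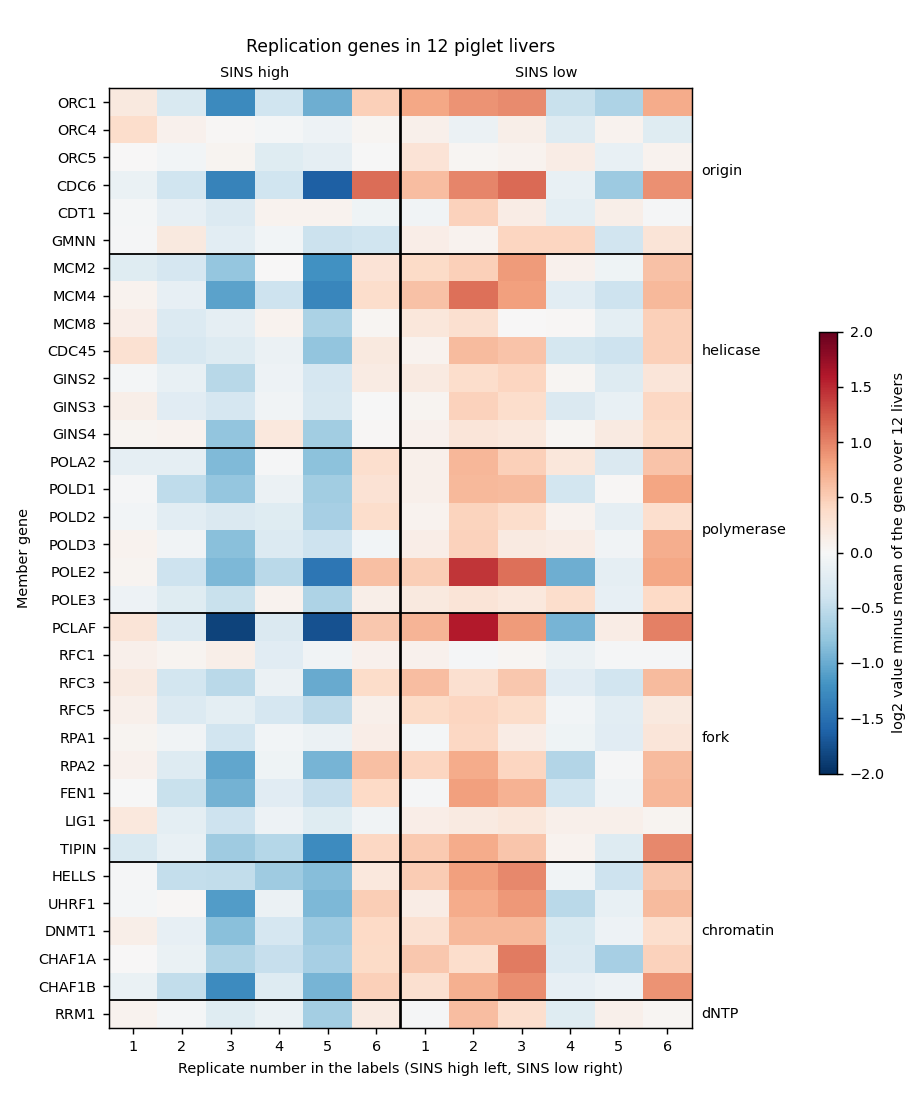
Log2 value of each of the 34 replication genes (rows, by role) in each of the 12 livers (columns, SINS high on the left, SINS low on the right), minus the mean of the gene over the 12 livers (colour). SINS high replicates 3 and 5 are blue in most rows, SINS low replicates 2, 3 and 6 are red, and ORC4, ORC5 and RFC1 stay pale in all columns.

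Of the genes of origin licensing, ORC1 and CDC6 were called lower, while ORC4 and ORC5, other subunits of the origin recognition complex, were not called. CDC6, which helps to load the MCM ring, had log2 values of 2.58 to 5.33 in the SINS high livers (median 3.82), against 3.48 to 5.35 in the SINS low livers (median 4.98). The lowest SINS high values were 2.87 in replicate 3 and 2.58 in replicate 5, while SINS high replicate 6 at 5.33 lay next to the top of the SINS low group. Its log2(FC) was −0.92 (standard error 0.42, exact permutation p = 0.104). ORC1, the subunit of the complex whose level rises before S phase in human cells, had 3.24 to 4.99 in the SINS high livers (median 4.16), against 3.89 to 5.46 in the SINS low livers (median 5.27). All 6 SINS high livers lay below the SINS low median, yet SINS low replicates 4 and 5, at 4.06 and 3.89, lay within the SINS high range. Its log2(FC) was −0.76 (standard error 0.34, exact permutation p = 0.0844). Both calls were lost with the methods' t-test and with an intensity trend and robust eBayes in limma. Both were also lost without SINS high replicate 2, 3, 4 or 5 or SINS low replicate 1, 2, 3 or 6, and the call of CDC6 without SINS high replicate 1, with the smallest changes −0.69 for CDC6 without SINS high replicate 5 and −0.58 for ORC1 without SINS high replicate 3.

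GMNN encodes geminin, which binds CDT1 and blocks a second round of licensing. It had 5.90 to 6.53 in the SINS high livers (median 6.20), against 5.95 to 6.76 in the SINS low livers (median 6.52), and its log2(FC) of −0.31 (standard error 0.15) was not called. SINS high replicate 6 was, at 5.93, among the 3 lowest livers for GMNN, as it was for only 2 of the 34 genes. CDT1 itself had a log2(FC) of −0.15, with a 95% interval of −0.38 to 0.09. ORC5 had −0.15, with an interval of −0.34 to 0.05, and ORC4 had 0.11, with an interval of −0.11 to 0.33. The intervals of ORC4 and ORC5 lie within a fold change of 1.3 in both directions.

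Of the 7 measured genes of the helicase, MCM2, MCM4 and GINS4 were called lower and all 7 had a negative log2(FC). MCM2, a subunit of the ring that unwinds DNA, had log2 values of 4.84, 4.75, 4.31, 5.10, 3.88 and 5.37 in SINS high replicates 1 to 6, against 5.47, 5.56, 5.94, 5.18, 5.01 and 5.67 in SINS low replicates 1 to 6. Of the SINS high livers, 4 lay below every SINS low liver, and replicates 4 and 6 lay within the SINS low range. The log2(FC) was −0.76 (standard error 0.23, adjusted p = 0.287 from limma, exact permutation p = 0.013). MCM4, another subunit of the ring, had 4.70 to 6.35 in the SINS high livers (median 5.70), against 5.58 to 7.10 in the SINS low livers (median 6.62). SINS high replicates 3 and 5 lay below every SINS low liver and 4 SINS low livers lay above every SINS high liver. Its mean difference, the log2(FC), was −0.85 (standard error 0.31, exact permutation p = 0.0498).

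GINS2, GINS3 and GINS4 belong to the GINS complex, which binds the ring together with CDC45. GINS2 had 4.58 to 5.30 in the SINS high livers (median 5.01), against 4.87 to 5.56 in the SINS low livers (median 5.34). Its log2(FC) of −0.33 (standard error 0.14, exact permutation p = 0.0476) did not reach the 1.3-fold of the filter. GINS4 had −0.38 (standard error 0.17), and SINS high replicates 3 and 5 stood apart at 5.13 and 5.23, while the other 10 livers lay between 5.94 and 6.31. Its call was lost without either of these 2 livers, without SINS low replicate 2, 3, 5 or 6, with the methods' t-test, with array weights (−0.36) and with quantile normalization (−0.34), and its smallest change was −0.26 without SINS high replicate 3. GINS3 had −0.28, CDC45 −0.33 and MCM8, a relative of the ring subunits that acts in recombination, −0.28, and none of these 3 was called. Their 95% intervals reached −0.58, −0.80 and −0.59, so falls beyond the fold change of the filter lie within them.

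Of the 6 measured genes of the polymerases and primase, 5 were called lower, and POLD2 was not. POLD3, an accessory subunit of polymerase delta, had log2 values of 6.16, 6.02, 5.26, 5.83, 5.69 and 6.05 in SINS high replicates 1 to 6, against 6.23, 6.56, 6.28, 6.24, 6.03 and 6.82 in SINS low replicates 1 to 6. SINS low replicate 5 was the only SINS low liver that did not lie above all SINS high livers. The log2(FC) was −0.53 (standard error 0.16, adjusted p = 0.292 from limma, exact permutation p = 0.00649). POLD1, the catalytic subunit of polymerase delta, had 4.85 to 5.92 in the SINS high livers (median 5.32), against 5.26 to 6.42 in the SINS low livers (median 6.00), with a log2(FC) of −0.61 (standard error 0.22, exact permutation p = 0.039). Its 3 lowest livers, SINS high replicates 2, 3 and 5, lay below every SINS low liver. POLD2, the subunit that ties the other delta subunits together, had −0.37 (standard error 0.15), which is just under the fold change of the filter, and was called without SINS high replicate 1 or 6 or SINS low replicate 1, 4 or 5, at −0.48 without SINS high replicate 6.

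POLE3, a histone-fold subunit of polymerase epsilon, had 5.66 to 6.39 in the SINS high livers (median 6.10), against 6.11 to 6.68 in the SINS low livers (median 6.52). In the SINS low group 5 livers lay between 6.47 and 6.68, above every SINS high liver, and replicate 5 lay apart at 6.11. The log2(FC) was −0.42 (standard error 0.14, exact permutation p = 0.0173), and the call was lost without SINS high replicate 3 or 5 or SINS low replicate 6, where the smallest change was −0.33 without SINS high replicate 5. POLE2, another subunit of polymerase epsilon, had −0.89 (standard error 0.39, exact permutation p = 0.0887) over wide ranges, 2.59 to 4.64 in the SINS high livers and 3.07 to 5.47 in the SINS low livers. Its call was lost without SINS high replicate 2, 3, 4 or 5 or SINS low replicate 1, 2, 3 or 6, with the methods' t-test and with the intensity trend and robust eBayes, with −0.68 without SINS high replicate 5. POLA2, the regulatory subunit of polymerase alpha, had −0.59 (standard error 0.21, exact permutation p = 0.0368), with SINS high replicates 3 and 5 at 4.62 and 4.69 below all SINS low livers.

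**Figure D2:**
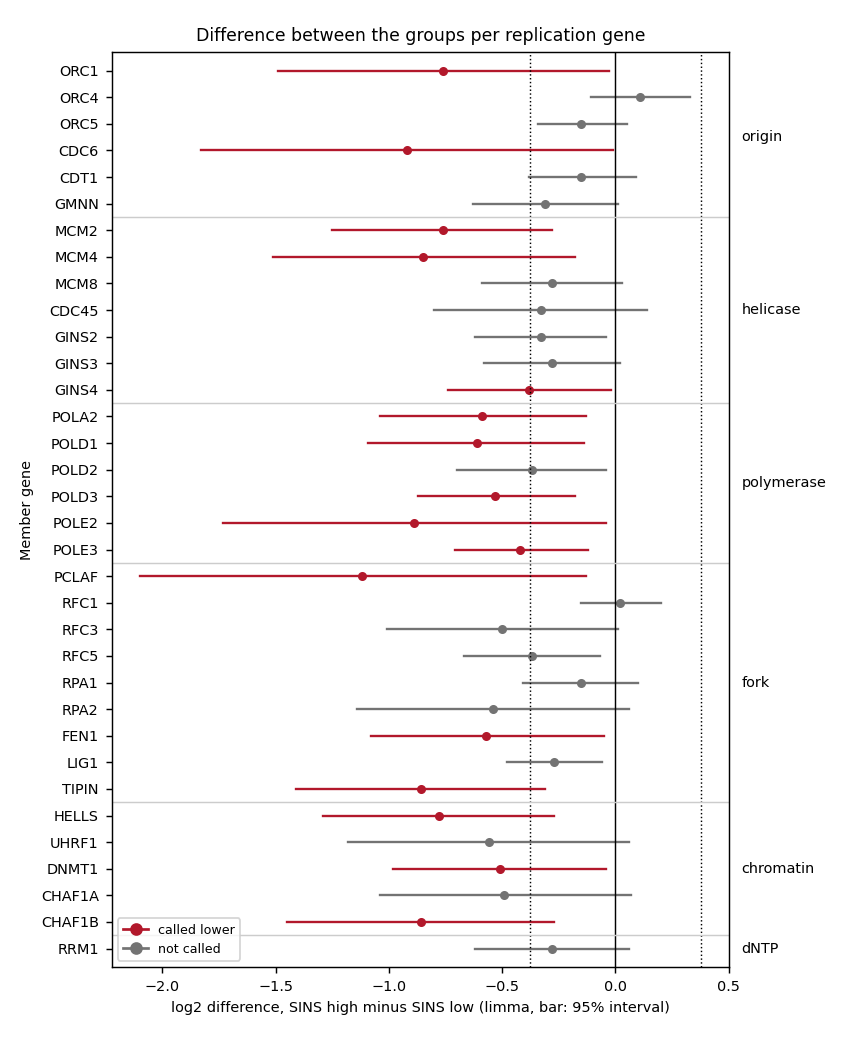
Log2 difference between the groups (horizontal axis, SINS high minus SINS low, from limma) for each of the 34 replication genes by role, with bars for the 95% interval and dotted lines at a fold change of 1.3 in either direction. The 16 genes called lower are in red, and all points but ORC4 and RFC1 lie left of 0.

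At the fork, TIPIN, PCLAF and FEN1 were called lower, and 6 of 9 genes were not called. TIPIN, which with its partner TIMELESS keeps the helicase and the polymerases together, had the smallest limma p of the whole set. Its log2 values were 4.87, 5.02, 4.47, 4.60, 3.91 and 5.59 in SINS high replicates 1 to 6, against 5.70, 5.92, 5.73, 5.24, 4.91 and 6.14 in SINS low replicates 1 to 6. Replicates 1, 3, 4 and 5 of the SINS high group lay below every SINS low liver, and the log2(FC) was −0.86 (standard error 0.26, adjusted p = 0.287 from limma, exact permutation p = 0.0173). PCLAF, a small protein that binds the PCNA clamp, had the largest difference of the 34 genes and the widest spread among SINS high livers, with 6.53 ± 1.01 in the SINS high livers and 7.64 ± 0.87 in the SINS low livers (SD, n = 6). Its values were 7.34, 6.81, 5.24, 6.80, 5.35 and 7.63 in SINS high replicates 1 to 6, against 7.77, 8.67, 7.94, 6.15, 7.24 and 8.09 in SINS low replicates 1 to 6. Thus SINS high replicates 3 and 5 lay below all other livers, and SINS low replicate 4 came next. The log2(FC) of PCLAF was −1.12 (standard error 0.46, exact permutation p = 0.0736), and the call was lost with the methods' t-test and without SINS high replicate 3 or 5 or SINS low replicate 2, 3 or 6, with −0.86 without SINS high replicate 3. PCLAF was among the strongly regulated genes that the study picked from these arrays for qPCR, and the qPCR was not analysed here.

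LIG1, the ligase that seals the fragments of the lagging strand, showed a small difference with little spread in the SINS low group. It had 4.55 to 5.17 in the SINS high livers (median 4.80), against 5.01 to 5.18 in the SINS low livers (median 5.07). Of the SINS high livers, 5 lay below every SINS low liver, and replicate 1 at 5.17 was next to the highest of all. The log2(FC) was −0.27 (standard error 0.10, exact permutation p = 0.013), too small for the filter. FEN1, which removes the flaps that precede ligation, had −0.57 (standard error 0.24, exact permutation p = 0.0671). Its call was lost with the methods' t-test and without SINS high replicate 2, 3 or 5 or SINS low replicate 2, 3 or 6, with −0.43 without SINS high replicate 3.

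Of the clamp loader, which opens the PCNA ring and sets it on DNA, RFC1, RFC3 and RFC5 were measured, and none was called. RFC5 had 6.05 to 6.67 in the SINS high livers (median 6.34), against 6.36 to 7.0 in the SINS low livers (median 6.86), with a log2(FC) of −0.37 (standard error 0.14, exact permutation p = 0.0411) that lay just under the fold change of the filter. RFC3 had −0.50 (standard error 0.24), and RFC1, the large subunit, had 0.02 with a 95% interval of −0.15 to 0.20. The difference between these subunits was not tested. Of the protein that coats single-stranded DNA, RPA2 had −0.54 (standard error 0.28) and RPA1 −0.15 (standard error 0.12), and neither was called.

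**Figure D3:**
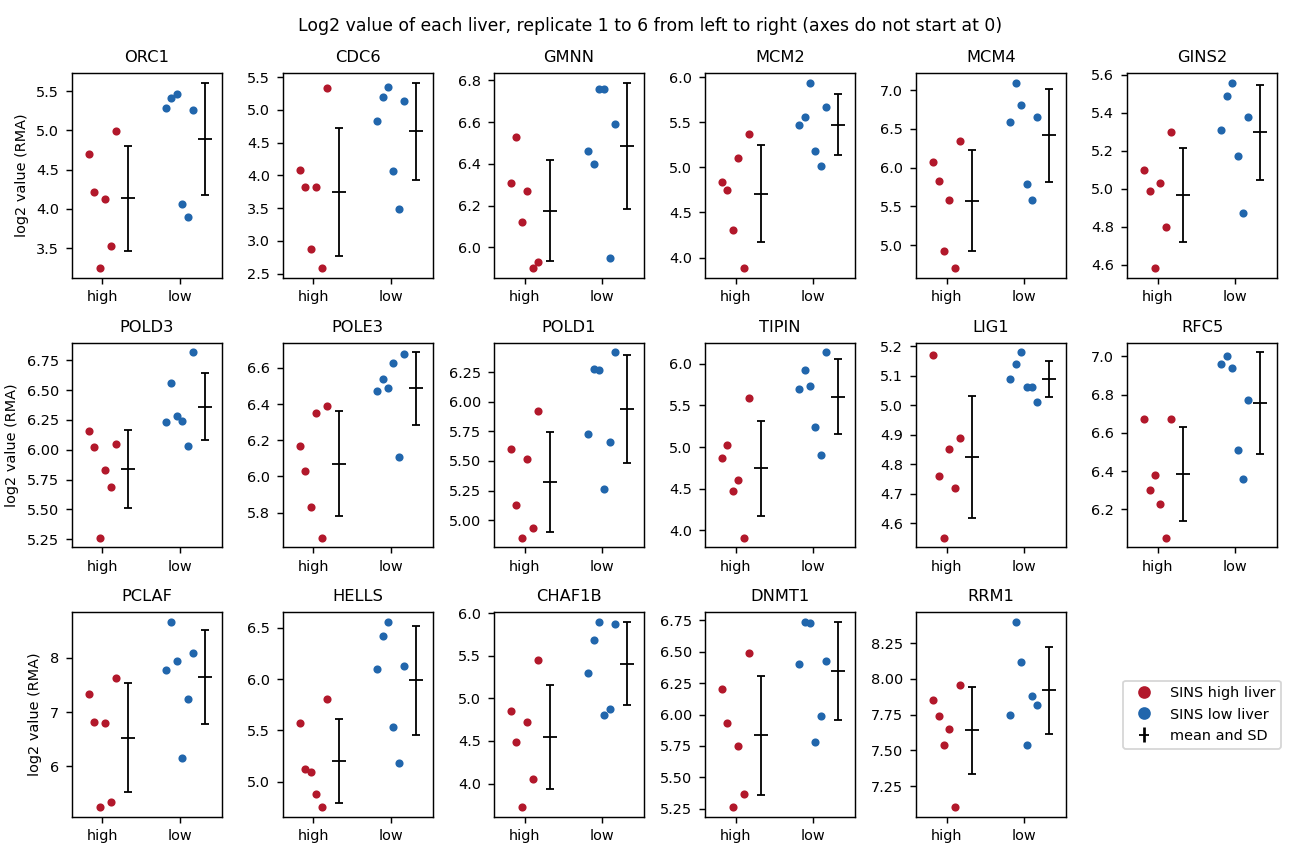
Log2 value of each liver (points, SINS high in red on the left and SINS low in blue on the right of each panel, replicates 1 to 6 in order) with the mean and SD of each group (n = 6) for 17 replication genes. In each panel the ranges of the groups overlap, and the lowest point is mostly SINS high replicate 3 or 5.

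Among the genes that copy chromatin and DNA methylation, HELLS, CHAF1B and DNMT1 were called lower and all 5 had a negative log2(FC). HELLS, a chromatin remodeller needed for DNA methylation, had 4.75 to 5.81 in the SINS high livers (median 5.11), against 5.18 to 6.56 in the SINS low livers (median 6.12). Replicates 2, 3, 4 and 5 of the SINS high group lay below every SINS low liver. The log2(FC) was −0.78 (standard error 0.24, adjusted p = 0.29 from limma, exact permutation p = 0.0216). CHAF1B, a subunit of the factor that places new histones behind the fork, had 3.72 to 5.45 in the SINS high livers (median 4.61), against 4.81 to 5.90 in the SINS low livers (median 5.49), with a log2(FC) of −0.86 (standard error 0.27, exact permutation p = 0.026). Here too 4 SINS high livers lay below the whole SINS low group. CHAF1A, the large subunit of the same factor, had −0.49 (standard error 0.26) and was not called.

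DNMT1, the enzyme that copies methylation onto the new strand, had 5.26 to 6.49 in the SINS high livers (median 5.84), against 5.78 to 6.74 in the SINS low livers (median 6.42). SINS high replicate 6 at 6.49 lay above 4 of the 6 SINS low livers. Its log2(FC) was −0.51 (standard error 0.22, exact permutation p = 0.0736), and the call was lost with the methods' t-test and without SINS high replicate 3, 4 or 5 or SINS low replicate 1, 2, 3 or 6, with −0.40 without SINS high replicate 3. UHRF1, which guides DNMT1 to the new DNA, had −0.56 (standard error 0.29) and was not called. RRM1, the large subunit of ribonucleotide reductase and the only measured gene of deoxynucleotide supply, had 7.10 to 7.96 in the SINS high livers (median 7.70), against 7.54 to 8.40 in the SINS low livers (median 7.85). Its log2(FC) of −0.28, with a 95% interval of −0.62 to 0.06, was not called.

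By role, the median log2(FC) was −0.23 for origin licensing, −0.33 for the helicase, −0.56 for the polymerases, −0.50 for the fork, −0.56 for chromatin copying and −0.28 for RRM1 alone. These medians are descriptions, and the differences between roles were not tested. The share of members called lower was 33.3% for origin licensing, 42.9% for the helicase, 83.3% for the polymerases, 33.3% for the fork and 60.0% for chromatin copying, and RRM1 was not called.

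The livers of each group differed widely in their replication genes. To set the livers side by side, each gene was centred on its mean over the 12 livers and the median over the 34 genes was taken. This median deviation was 0.06, −0.21, −0.58, −0.13, −0.69 and 0.25 in SINS high replicates 1 to 6, against 0.18, 0.47, 0.45, −0.16, −0.16 and 0.48 in SINS low replicates 1 to 6. SINS high replicates 3 and 5 were thus the lowest, SINS high replicate 6 lay above 3 SINS low livers, and SINS low replicates 4 and 5 lay below SINS high replicates 1, 4 and 6. SINS high replicate 3 had the lowest value of all 12 livers for 16 genes and SINS high replicate 5 for 14, together 30 of the 34. At the other end, SINS low replicate 2 had the highest value for 14 genes, replicate 3 for 10 and replicate 6 for 7. SINS high replicates 5 and 3 lay below the whole SINS low group for 29 and 24 genes, against 11 for replicate 2, 10 for replicate 4, 3 for replicate 6 and 2 for replicate 1. Without SINS high replicates 3 and 5 together, a choice made after the values were seen, 3 genes were called lower, MCM2 with −0.46, TIPIN with −0.59 and HELLS with −0.64. The median log2(FC) of the 34 genes was then −0.24. A smaller difference follows from leaving out the livers with the lowest values. The SINS low livers with the highest values were not left out together.

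Within each group most replication genes varied together from liver to liver. Over the 561 pairs of the 34 genes, the median Pearson correlation was 0.77 across the 6 SINS high livers and 0.69 across the 6 SINS low livers, where the median over all pairs of named genes was 0.00 in each. The values of a liver share 1 RNA extract and 1 array, and these correlations are given as a description. On deviations from the group mean over the 12 livers, MCM4 followed the other members most closely, with a median correlation of 0.87, followed by ORC1 with 0.86 and CDC6 with 0.85. At the other end were ORC5 with 0.18, RFC1 with 0.21, ORC4 with 0.23, GMNN with 0.27 and CDT1 with 0.28, and the next above them was LIG1 with 0.54. These 5 genes were among those not called between the groups, but so were UHRF1 with 0.82 and CDC45 with 0.81. The split runs through complexes, since ORC1 was at the top and ORC4 and ORC5 at the bottom, and RFC3 had 0.81 where RFC1 had 0.21.

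Further genes around replication, taken from lists of known function, were also lower or not called, and none was called higher. Over all named genes 3.80% were called lower, and the lists were not tested against this share. Of 16 measured replication factors outside the set, 6 were called lower, with a median log2(FC) of −0.25. DTL, which directs the destruction of CDT1 at the fork, had −1.03 (standard error 0.40), the nuclease DNA2 −0.90 (standard error 0.31), and DSCC1, part of an alternative clamp loader, −0.74 (standard error 0.25). WDHD1, ATAD5 and EXO1 had −0.71, −0.66 and −0.62. POLD4, a small subunit of polymerase delta named after its values were seen, lay the other way, with 5.68 to 5.93 in the SINS high livers and 5.11 to 5.62 in the SINS low livers. Its groups did not overlap, but its log2(FC) of 0.30 (standard error 0.10, adjusted p = 0.304 from limma) was under the 1.3-fold of the filter. MCMBP, of the same list and also named after its values were seen, lay lower without overlap. It had 6.38 to 6.88 in the SINS high livers and 6.9 to 7.23 in the SINS low livers. The log2(FC) of MCMBP, −0.33 (standard error 0.10, adjusted p = 0.302 from limma), was also under the filter. Of all named genes, 0.244% lay lower without overlap, and the share that lay higher was not counted here. Of 7 genes of histone supply, 3 were called lower, DNAJC9 with −1.04, HAT1 with −0.66 and CASP8AP2 with −0.39. Of 18 genes of S phase entry, CCNE1, the cyclin that starts S phase, with −0.80 (standard error 0.26), and its kinase CDK2 with −0.47 (standard error 0.13) were called lower, and 16 were not called. Of 8 other enzymes of deoxynucleotides and folate, 0 were called in either direction, with a median of −0.17.

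Genes of mitosis, which act after replication is complete, had a median log2(FC) of −0.48, and 2 of 26 were called lower, where 3.80% of all named genes were. Their standard errors reached 0.49, and the difference from the replication genes was not tested. The 2 were MAD2L1 with −0.88 (standard error 0.38) and SKA1 with −1.0 (standard error 0.35). The livers spread more widely for mitosis than for replication genes. The median deviation of mitosis genes was 0.19, −0.23, −1.39, 0.36, −0.92 and 0.51 in SINS high replicates 1 to 6, against −0.04, 1.10, 0.44, −1.51, 0.60 and 0.86 in SINS low replicates 1 to 6. SINS low replicate 4 was thus the lowest of all livers for mitosis, while its median deviation for the replication genes was −0.16. SINS high replicates 3 and 5 were low for both. The median correlation between replication and mitosis genes, on deviations from the group mean over 12 livers, was 0.63.

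**Figure D4:**
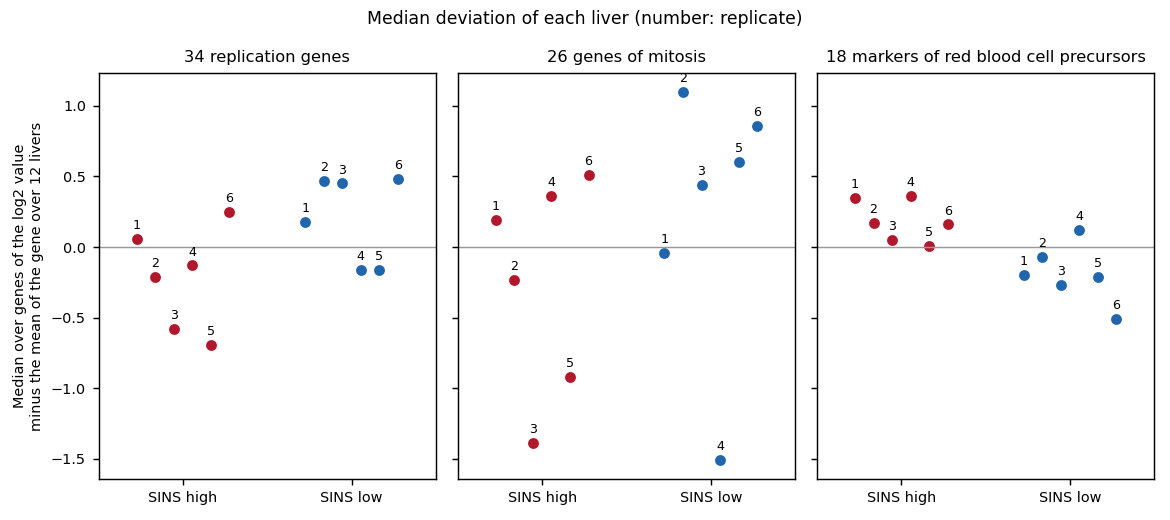
Median over genes of the log2 value minus the mean of each gene over the 12 livers (vertical axis), for the replication genes, mitosis genes and markers of red blood cell precursors, with 1 point per liver labelled by replicate (SINS high in red, SINS low in blue). SINS high replicates 3 and 5 are low in the first 2 panels, SINS low replicate 4 is the lowest liver in the mitosis panel, and the red blood cell precursor markers lie at 0.01 to 0.36 in the SINS high livers and at −0.51 to 0.12 in the SINS low livers.

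Some markers of liver cell types were called higher in the SINS high livers, where 2.30% of all named genes were called higher. The marker lists are short and were not tested against this share. Of 18 measured of 26 markers of red blood cell precursors, 7 were called higher, 0 were called lower and 11 were not called. The mean log2 level of the 18 lay between 4.60 and 5.06 in the SINS high livers and between 4.12 and 4.74 in the SINS low livers. TFRC, not called, was the only one of them with a negative log2(FC), −0.74 (standard error 0.42). Of 16 of 20 markers of Kupffer cells and macrophages, 4 were called higher, with mean levels of 6.61 to 7.17 in the SINS high livers and 6.35 to 6.78 in the SINS low livers. Of 8 of 15 markers of granulocyte precursors, 1 was called higher (3.76 to 4.57 in the SINS high livers and 3.29 to 4.27 in the SINS low livers), as was 1 of 12 of 19 markers of the sinusoidal endothelium (6.72 to 7.36 in the SINS high livers and 6.57 to 7.06 in the SINS low livers). Of the 10 hepatocyte markers, 3 were called higher and 0 lower. The 15 of 17 measured lymphocyte markers had mean levels of 3.11 to 3.46 in the SINS high livers and 3.05 to 3.30 in the SINS low livers, and 0 were called. The 7 of 11 bile duct markers had 5.44 to 5.73 in the SINS high livers and 5.64 to 5.82 in the SINS low livers, and the 12 of 15 stellate cell markers 5.77 to 6.79 in the SINS high livers and 5.71 to 6.57 in the SINS low livers, with 0 called in either list. The log2 scale of the array has no zero, so no marker could be read as absent. The median correlation of replication genes with these markers, on deviations from the group mean over the 12 livers, was 0.01 for red blood cell precursors, 0.22 for stellate cells, −0.10 for bile duct cells, and between −0.17 and −0.13 for the other 5 lists. The part of any cell type in the lower replication genes was not tested.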

How the data were processed

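Total RNA of 12 piglet livers was hybridized by the authors to 1 Affymetrix porcine gene array each. The authors deposited log2 values from RMA, run in Expression Console (versions not given in the sources used here), that is background adjustment, normalization across arrays and probe summary, and no further scaling was applied here. The labels give no batch or scan date. Precision is set by having 6 arrays per group. Of 25388 transcripts, 13257 carry 1 gene symbol, and for each of the 12307 named genes the brightest transcript on average was kept. FEN1, GINS4 and DNMT1 have a second transcript, for FEN1 with identical values.

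All transcripts entered a group-only linear model (limma 3.58.1, R 4.3.3, lmFit then eBayes), p-values were adjusted by Benjamini and Hochberg over all of them, and the fit was tested on simulated data. Exact permutation tests were two-sided, with a smallest possible p of 0.00216. Values in every sample are given for the 3 genes of each role with the smallest p, MCM2 to MCM7, PCNA and PCLAF where measured, any gene whose groups do not overlap and any called higher. The members, roles and lists were chosen with earlier results of these data known. The piglets are the replicates. Alternatives were the methods' t-test, an intensity trend with robust eBayes, array weights, no dimmest 25%, quantile normalization, median centring, a replicate block, 1 transcript per gene, the second transcript, a fold change above 1.5 and leaving out each liver. Figures were drawn with matplotlib 3.10.9.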

Additional observations from a re-analysis of the deposited data

Results flagged for a closer look

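Of 68 groups of 6 livers, 1 for each gene and group, 1 held a liver far from the other 5. The genes share the same livers and vary together, so this count was not set against a chance rate. For POLE3, SINS low replicate 5 had a log2 value of 6.11, where the other SINS low livers lay between 6.47 and 6.68. Without this liver the log2(FC) of POLE3 was −0.49.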

How the results depend on the processing

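No gene of the set was called higher under any alternative, and the log2(FC) of all 16 called genes stayed negative in each. The count called lower was 16, and it was 9 with the methods' t-test, between 8 and 23 when 1 liver was left out, and 3 without SINS high replicates 3 and 5 together, which was chosen after seeing the data. The other alternatives that kept all livers gave 11 to 21. Under the alternatives, the shares of all named genes called were not counted. The median log2(FC) of the set lay between −0.59 and −0.38 when 1 liver was left out. RFC1 reversed with array weights, at −0.01, and the cause was not tested. With the replicate block the count was 19 and the smallest adjusted p of a replication gene 0.0733, for TIPIN, and no call was lost. Same-numbered piglets deviated together with correlations of −0.000303 to 0.341 and 2 of 6 matched best with their own number, so the shared numbers were not taken as a pairing. With 6 arrays a group, falls of the genes not called are bounded only by their intervals.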
